A study of Arabidopsis thaliana with 15 samples.

Results

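The move of Arabidopsis thaliana explants from callus induction medium (CIM) to shoot induction medium (SIM) at 17 °C was described from 6 RNA-seq libraries, which are all libraries labelled Col-0, 17 °C and either SIM or CIM, of 15 in the series. The description covers all genes: 33602 stood in the table and 20704 passed the filter on low counts. The SIM group held 3 samples of explants that spent 4 days on CIM and then 4 days on SIM, all at 17 °C. The CIM group held 3 samples of explants that spent 4 days on CIM at 17 °C. Both groups came from hypocotyls, the seedling stem, cut from 7-day-old seedlings that had been raised in the dark at 22 °C, and both were cultured in continuous light. In CIM the auxin was the synthetic compound 2,4-D (0.5 mg per litre) and the cytokinin kinetin (0.1 mg per litre), whereas SIM held the cytokinin 2-iP at 0.5 mg per litre with the auxin IAA at 0.15 mg per litre. SIM was also set with less gellan gum. Each sample pooled about 100 explants, so differences between explants were averaged, and the effects of the medium and of the 4 further days of culture cannot be told apart. The 27 °C samples of the same 2 media, 3 of each, were compared only to show where the change at 17 °C differed. All 15 libraries entered the same fit, so the other samples also shaped the filter, the scaling and the estimated spread.

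As background, auxin-rich CIM makes cells beside the vascular strands of a hypocotyl divide into a callus whose genes resemble those of a lateral root primordium, with LBD, PLT and WOX transcription factors among them. Cytokinin-rich SIM then allows part of that callus to form shoot meristems, marked first by WUS, the homeodomain factor that organizes the shoot stem cell niche, and by boundary genes such as CUC1 and CUC2. Cytokinin is read by receptor kinases and type-B response regulators that raise transcription of the type-A response regulators. Auxin is read by breakdown of Aux/IAA repressors, which frees ARF factors at promoters with auxin response elements.

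Total counts were 3427707 to 4159645 in the 6 libraries, and no gene had more than 3476 counts in a library. Between SIM libraries, counts differed by less than counting noise (chi-square per degree of freedom 0.717 to 0.854). CIM libraries 1 and 2 also differed by less than counting noise over all genes (0.912), though 18 genes differed singly in a binomial test, and they were kept as 2 samples. CIM library 3 stood apart from CIM libraries 1 and 2 (1.37 and 1.26, with 162 and 153 genes), so list counts and gene values that moved by over 1.5 times without it are given both ways. The labels do not say that the samples came from separate cultures. The p-values thus rest only on how much samples varied within the 5 fitted groups, and that spread can be technical. Levels are counts scaled to library size, in the usual unit CPM, and fold changes are log2 of SIM over CIM. Adjusted p-values come from edgeR's quasi-likelihood test over the 20704 genes, with 0.05 as the threshold for a call. The value after ± is the size of the fold change divided by the square root of that test's F statistic. It approximates a standard error and can lie below counting error where a group has few counts. Counts measure a gene's share of the RNA in whole explants, in which fewer cells of a type and less RNA per cell cannot be told apart.

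SIM and CIM explants differed in 9955 of the 20704 genes tested. Of these 9955 (48.1%), 5107 were higher after SIM (24.7% of genes tested) and 4848 lower (23.4%). The balance between directions depends on the scaling, which centres the fold changes: with DESeq2's size factors in place of TMM, 4827 genes were called higher and 5182 lower. Most changes were small: 68.2% of the called genes changed by less than 1 log2 unit, and the median size over all genes tested was 0.24. At least 2-fold changes were called for 1559 genes (7.53%) higher and 1606 genes (7.76%) lower. The 3 SIM values lay wholly above the 3 CIM values for 29.5% of genes and wholly below for 27.7%. A count of called list members is therefore read against about 1 gene in 4 in each direction.

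**Figure D1:**
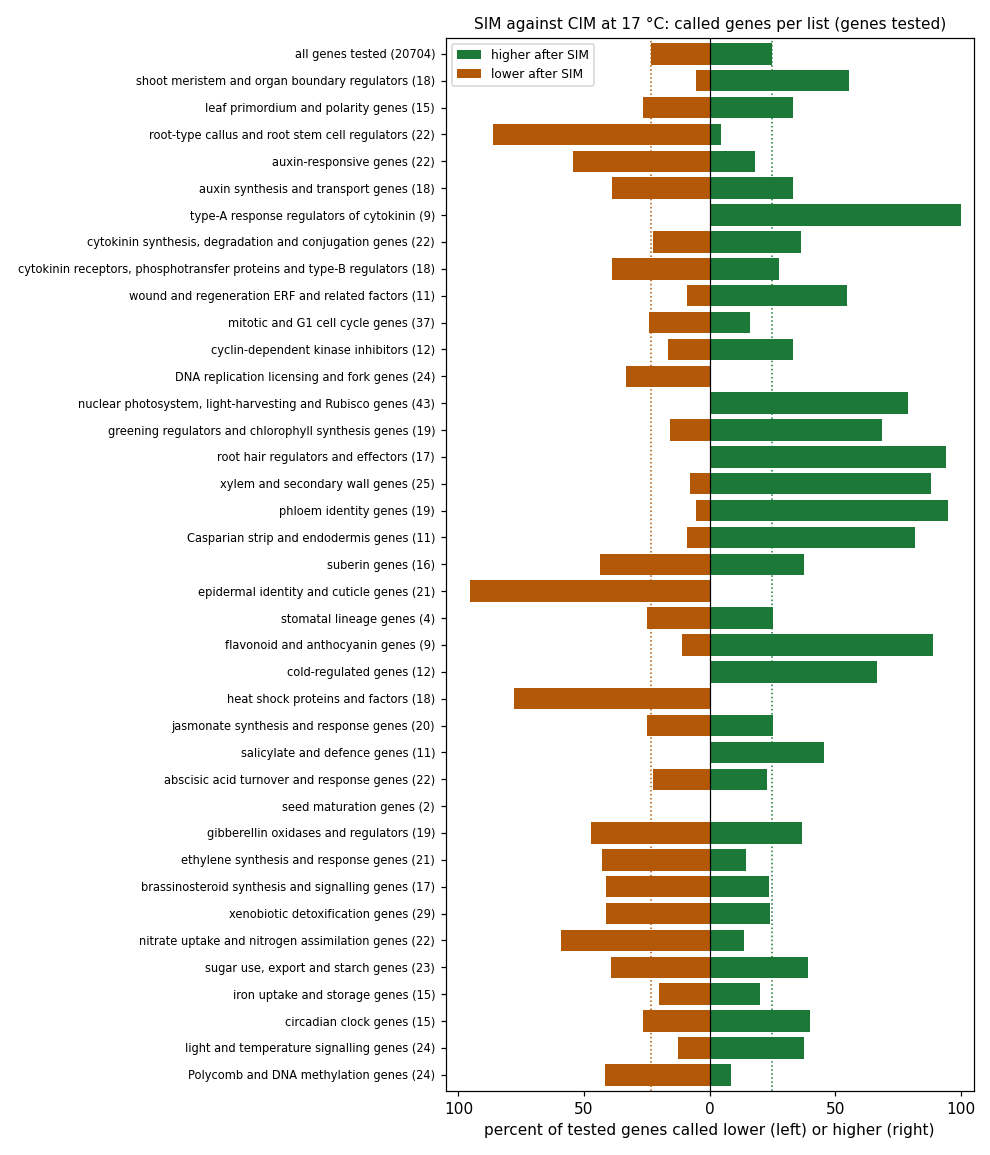
Percent of tested genes called lower (left, orange) or higher (right, green) after SIM in each of 38 gene lists and over all genes tested, with the number tested in brackets; dotted lines mark the 23.4% and 24.7% of all genes. Type-A response regulators, root hair and phloem genes stood far to the right, and epidermal, root-type callus and heat shock genes far to the left.

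Shoot regulators were mostly higher after SIM. Of 22 shoot meristem and organ boundary genes, 18 passed the filter, and of these 10 rose, 1 fell and 7 were not called. Their median log2 fold change was 1.01 against 0 over all genes. The filter used all 5 groups, so genes with few counts at 17 °C could pass it through another group. CUC3 and CYP78A5, both among the 10, had 8 and 9 counts after SIM at 17 °C and 79 and 543 after SIM at 27 °C. LOF1, with 0 counts after SIM and 16 after CIM at 17 °C, did not pass. WUS had 5.91, 4.60 and 5.38 CPM in SIM libraries and 0, 0 and 0 CPM in CIM libraries, at least 20.9-fold higher after SIM if the CIM libraries together are given 3 counts (adjusted p = 7.2e-09). ATH1, a BEL1-like homeodomain factor of the shoot apex, had 3.07, 2.98 and 3.92 CPM in SIM libraries and 0, 0 and 0 CPM in CIM libraries, at least 13.04-fold higher (adjusted p = 1.1e-07). Neither gene had a single count in the 3 CIM libraries at 17 °C, while every SIM library had some.

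RAX1, a MYB factor of axillary meristems, was at 38.0, 35.7 and 33.5 CPM after SIM and 3.49, 2.64 and 3.86 CPM after CIM, a log2 fold change of 3.42 ± 0.18 (adjusted p = 7.0e-17). BLR, another BEL1-like homeodomain factor, was at 35.0, 28.9 and 28.4 CPM after SIM and 12.5, 8.41 and 10.6 CPM after CIM (1.57 ± 0.14, adjusted p = 1.0e-10). ESR1, an AP2/ERF factor named for raising shoot regeneration when overexpressed, was at 10.4, 11.1 and 13.7 CPM after SIM and 2.91, 2.88 and 3.14 CPM after CIM (1.97 ± 0.26, adjusted p = 6.3e-08). In all 3 genes the lowest SIM library lay above the highest CIM library, as in 29.5% of all genes tested.

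The boundary factors rose by different amounts. CUC1 had 4.49, 4.87 and 6.36 CPM in SIM explants and 2.04, 1.68 and 0.965 CPM in CIM explants (1.75 ± 0.33, adjusted p = 3.5e-05). CUC2 had 46.8, 49.2 and 48.9 CPM in SIM explants and 35.5, 30.8 and 22.2 CPM in CIM explants (0.73 ± 0.10, adjusted p = 6.7e-07). CUC3 and CYP78A5, a cytochrome P450 of organ borders, were detected only in SIM libraries, with 8 and 9 counts in all, which makes CUC3 at least 2.61-fold and CYP78A5 at least 2.93-fold higher after SIM. LSH3 also rose (0.45 ± 0.09). LAS, a GRAS factor of axillary meristems, was called lower (-0.26 ± 0.09, adjusted p = 0.031), a call lost when single libraries were left out.

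Several core meristem genes did not pass the test. STM, the KNOX homeodomain factor of the shoot meristem, had 0, 0.271 and 0 CPM in SIM libraries and 0.291, 0.240 and 0.241 CPM in CIM libraries, that is 1 count after SIM and 3 after CIM (adjusted p = 0.41). The related KNOX genes KNAT1 (0.07 ± 0.05), KNAT2 (-0.12 ± 0.17) and KNAT6 (0.11 ± 0.05) were not called, nor were the receptors CLV1 (-0.07 ± 0.12) and CLV2 (0.17 ± 0.07) or LSH4, with 8 counts after SIM and 3 after CIM. CLV3, the peptide that limits WUS, did not pass the filter and had 5 counts after SIM and 0 after CIM. PNF had 9 and 3 counts, ESR2 had 0 in both groups, and LOF1 had 0 after SIM and 16 after CIM.

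**Figure D2:**
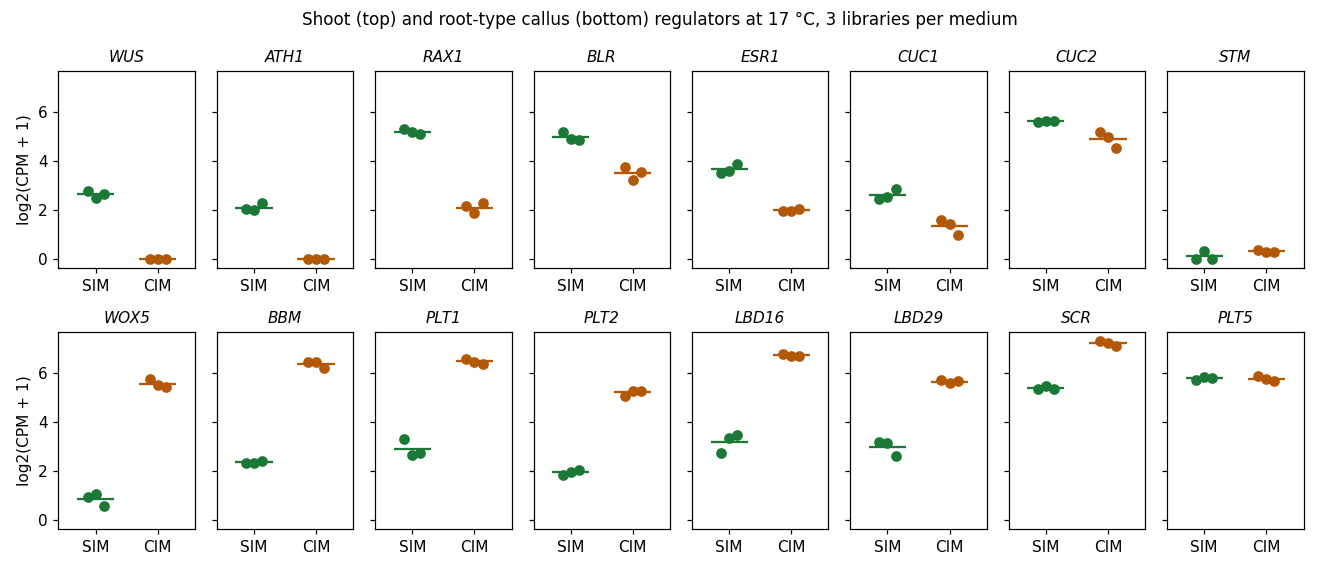
Level of 8 shoot regulators (top) and 8 root-type callus regulators (bottom) as log2(CPM + 1) in each SIM (green, left) and CIM (orange, right) library at 17 °C; the bar is the mean of 3 libraries. WUS and ATH1 are at 0 in every CIM library, STM is near 0 in both groups, and 7 of the 8 genes in the bottom row are lower in every SIM library, while PLT5 overlaps.

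Genes of leaf primordia moved in both directions: of 15 tested, 5 rose and 4 fell, near the 24.7% and 23.4% of all genes tested. ANT, an AP2 factor that promotes organ growth, rose to 134, 142 and 141 CPM in SIM explants against 53.8, 59.8 and 63.2 CPM in CIM explants (1.23 ± 0.05, adjusted p = 6.5e-19). AS1, a MYB factor of leaf founder cells, rose as well (0.98 ± 0.07), as did TCP10 (2.53 ± 0.28). GRF3, a growth-regulating factor, fell (-1.15 ± 0.15). The 7 members below the filter were AS2, YAB1, YAB2, YAB5, WOX1, PRS and GRF5, of which WOX1 had 24 counts after SIM and 2 after CIM.

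Root-type callus genes fell together. Of 23 root-type callus and root stem cell regulators, 22 were tested, and 19 fell, 16 of them by at least 2-fold, with a median log2 fold change of -2.32. WOX11 alone rose, and PLT5 and MGP were not called. The summed level of the list was 658 to 677 CPM in SIM libraries and 1446 to 1588 CPM in CIM libraries.

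The largest decrease in the list was that of WOX5, the WUS relative of the root quiescent centre, with 0.945, 1.08 and 0.489 CPM after SIM and 52.6, 44.9 and 42.0 CPM after CIM (-5.74 ± 0.21, adjusted p = 3.8e-21). The AP2 factors of the root meristem followed: BBM had 4.02, 4.06 and 4.41 CPM after SIM and 85.8, 86.7 and 73.3 CPM after CIM (-4.29 ± 0.14, adjusted p = 7.9e-21). PLT1 had 8.98, 5.41 and 5.63 CPM after SIM and 95.1, 87.5 and 82.3 CPM after CIM (-3.70 ± 0.11, adjusted p = 3.0e-22). All 3 genes were low in every SIM library and high in every CIM library. PLT2 fell too (-3.64 ± 0.18), and AIL6 (-0.51 ± 0.07) and PLT7 (-0.56 ± 0.07) by less. PLT5, which acts early in callus formation, was at 52.0, 56.3 and 55.1 CPM in SIM explants and 58.4, 53.3 and 49.95 CPM in CIM explants, with overlapping values (0.02 ± 0.06, adjusted p = 0.87).

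Among the LBD factors, which act below ARF7 and ARF19 in lateral root and callus initiation, LBD16 had 5.67, 9.20 and 10.3 CPM in SIM explants and 109.6, 104 and 102 CPM in CIM explants (-3.65 ± 0.10, adjusted p = 7.9e-25). LBD29 had 8.27, 7.85 and 5.14 CPM in SIM explants and 51.5, 47.1 and 50.2 CPM in CIM explants (-2.80 ± 0.14, adjusted p = 5.8e-18). LBD18 (-2.59 ± 0.09), LBD17 (-1.62 ± 0.12) and LBD33 (-1.21 ± 0.14) fell as well, so that all 5 LBD genes of the list were lower after SIM. The largest falls over all genes also included a further member of the family, LBD19 (0.236, 0 and 0 CPM after SIM and 11.3, 11.8 and 12.6 CPM after CIM).

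Root patterning and root cap genes were part of the fall. SCR, the GRAS factor of endodermis and quiescent centre, had 39.7, 43.8 and 40.1 CPM after SIM and 158, 151 and 138 CPM after CIM (-1.85 ± 0.06, adjusted p = 1.9e-22). JKD fell (-1.46 ± 0.07), while SHR, the moving partner of SCR, changed by -0.13 ± 0.05, a call lost in several alternatives. The root cap factors FEZ (-3.62 ± 0.49), SMB (-2.48 ± 0.24) and BRN1 (-2.61 ± 0.12) were lower after SIM. WOX7 (-2.31 ± 0.22) and WOX12 (-2.33 ± 0.86, adjusted p = 0.029) fell, though WOX12 lost its call without CIM library 3 (adjusted p = 0.065) and without some other single libraries. WOX11, a factor of the first steps of root founder cell fate, rose to 80.3, 77.4 and 83.0 CPM in SIM explants against 46.8, 56.9 and 49.0 CPM in CIM explants (0.65 ± 0.07, adjusted p = 7.5e-09).

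Auxin-responsive genes were more often lower than higher. Of 22 tested, 12 fell, 4 rose and 6 were not called, with a median log2 fold change of -0.33. Promoters of 3 that fell are shown because each carries the element TGTCTC, read by ARF factors, within 250 bases upstream of the gene start in RefSeq (TAIR10.1). Capitals mark the element on either strand.
GH3.2: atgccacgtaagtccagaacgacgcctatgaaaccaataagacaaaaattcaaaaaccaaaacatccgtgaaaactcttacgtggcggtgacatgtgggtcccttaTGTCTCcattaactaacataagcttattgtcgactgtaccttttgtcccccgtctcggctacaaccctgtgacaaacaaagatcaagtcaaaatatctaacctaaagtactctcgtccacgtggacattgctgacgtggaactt
IAA19: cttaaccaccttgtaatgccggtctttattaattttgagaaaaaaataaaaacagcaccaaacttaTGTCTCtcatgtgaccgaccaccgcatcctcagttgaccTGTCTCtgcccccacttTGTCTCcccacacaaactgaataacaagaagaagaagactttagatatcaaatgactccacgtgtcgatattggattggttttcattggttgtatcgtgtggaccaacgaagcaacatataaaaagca
IAA20: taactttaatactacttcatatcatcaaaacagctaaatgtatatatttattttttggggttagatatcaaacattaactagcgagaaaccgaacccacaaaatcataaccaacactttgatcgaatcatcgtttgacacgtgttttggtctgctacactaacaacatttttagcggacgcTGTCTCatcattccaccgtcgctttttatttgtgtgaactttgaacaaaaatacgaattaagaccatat
These are chr4:17579368-17579617 (plus strand) for GH3.2, chr3:5263751-5264000 (plus strand) for IAA19 and chr2:19307464-19307713 (plus strand) for IAA20.

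In windows of 300 bases around gene starts, 250 before and 50 after, TGTCTC on either strand stood in 11 of the 23 auxin-responsive promoters (47.8%), against 14.0% of 32831 nuclear promoters. The second element searched, TGTCGG, stood in 5 of 23 (21.7%), against 5.14% of all. Of the 12 that fell, 7 held TGTCTC and 0 held TGTCGG. Of the 4 that rose, 3 held one or the other, as did 4 of the 6 that were not called. A match describes letters in the window and not a bound site.

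The GH3 genes, whose enzymes join auxin to amino acids, fell throughout. GH3.1 had 11.3, 9.47 and 11.01 CPM in SIM explants and 155, 139 and 131 CPM in CIM explants (-3.72 ± 0.08, adjusted p = 1.1e-26). GH3.5 had 112, 126 and 119.9 CPM in SIM explants and 331, 298 and 299.9 CPM in CIM explants (-1.38 ± 0.05, adjusted p = 8.9e-19). GH3.2 had 69.0, 70.3 and 64.6 CPM in SIM explants and 166, 154 and 153 CPM in CIM explants (-1.21 ± 0.06, adjusted p = 6.2e-16). No SIM value reached a CIM value in these genes, as in 27.7% of all genes tested. GH3.3 (-0.90 ± 0.06) and GH3.6 (-0.42 ± 0.04) were lower as well. GH3.4 had 0 counts after SIM and 2 after CIM and was not tested.

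Aux/IAA genes, which encode the repressors of ARF factors, were mixed. IAA20 had 0.945, 1.62 and 2.45 CPM in SIM explants and 13.1, 16.6 and 10.1 CPM in CIM explants (-2.97 ± 0.31, adjusted p = 4.7e-10). IAA19 had 38.5, 39.2 and 43.1 CPM in SIM explants and 93.0, 82.9 and 78.9 CPM in CIM explants (-1.07 ± 0.08, adjusted p = 2.9e-13). IAA14, the repressor of lateral root initiation, had 22.7, 20.0 and 21.3 CPM in SIM explants and 61.3, 57.4 and 63.2 CPM in CIM explants (-1.50 ± 0.09, adjusted p = 1.1e-15). These 3 lay lower in every SIM library than in any CIM library, as did 27.7% of all genes tested. Smaller falls were called for IAA30 (-0.54 ± 0.09), IAA2 (-0.26 ± 0.05), IAA29 (-0.41 ± 0.14) and IAA4 (-0.16 ± 0.05), of which the last 2 lost the call when single libraries were left out.

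In the other direction, IAA31 had 3.07, 1.62 and 2.45 CPM after SIM and 0, 0 and 0 CPM after CIM, at least 9.45-fold higher (adjusted p = 4.0e-05). IAA12 rose to 61.2, 64.7 and 61.4 CPM in SIM explants against 47.1, 45.6 and 47.0 CPM in CIM explants (0.42 ± 0.06), and IAA17 rose by 0.40 ± 0.06. ARF19 was called higher (0.13 ± 0.04, adjusted p = 0.0086), but not without CIM library 3 (0.07, adjusted p = 0.21). IAA1 (-0.11 ± 0.07), IAA3 (0.18 ± 0.07), IAA5 (0.16 ± 0.19), IAA13 (-0.12 ± 0.05) and HAT2 (0.11 ± 0.05) were not called, and IAA6 had 1 count after SIM and 5 after CIM.

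Auxin synthesis and transport genes split, 6 higher and 7 lower of 18 tested, against 24.7% and 23.4% of all genes tested. The transporter gene PIN6 rose to 88.1, 79.3 and 86.6 CPM in SIM explants against 41.0, 40.8 and 36.4 CPM in CIM explants (1.11 ± 0.07, adjusted p = 1.5e-15), LAX2 rose by 0.56 ± 0.05, and PIN7 fell by 0.56 ± 0.05. YUC6, a flavin monooxygenase of auxin synthesis, rose to 40.4, 30.0 and 36.7 CPM in SIM explants against 10.47, 14.2 and 14.7 CPM in CIM explants (1.44 ± 0.12, adjusted p = 7.6e-12). YUC4, of the same family, was called higher (0.68 ± 0.25, adjusted p = 0.024), a call lost without CIM library 3 (adjusted p = 0.19) and without some other single libraries.

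Type-A response regulators of cytokinin all moved upward. All 9 that passed the filter, of 10, were called higher after SIM, with a median log2 fold change of 0.86, against 24.7% of all genes. Upstream sequence is shown for 2 members whose windows hold AGATNCG, a motif bound by type-B response regulators. Capitals mark this motif, and in ARR7 also a TGTCGG.
ARR7: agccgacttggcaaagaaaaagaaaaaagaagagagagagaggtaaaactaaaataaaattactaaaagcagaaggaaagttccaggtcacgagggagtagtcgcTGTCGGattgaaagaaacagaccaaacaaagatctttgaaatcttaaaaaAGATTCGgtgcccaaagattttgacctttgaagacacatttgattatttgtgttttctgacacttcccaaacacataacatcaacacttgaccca
ARR16: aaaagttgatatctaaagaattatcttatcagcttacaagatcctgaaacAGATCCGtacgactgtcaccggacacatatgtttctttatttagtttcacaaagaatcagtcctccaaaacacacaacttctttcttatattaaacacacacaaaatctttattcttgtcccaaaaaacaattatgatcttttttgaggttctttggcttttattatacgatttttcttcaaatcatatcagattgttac
These are chr1:6579315-6579564 (minus strand) for ARR7 and chr2:16969423-16969672 (plus strand) for ARR16.
The motif, on either strand of the 300-base windows, stood in 2 of the 10 promoters (20%) and in 7.67% of all 32831. ARR15 held none of the 3 elements in its window.

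ARR15 had 47.0, 49.2 and 46.0 CPM in SIM libraries and 6.11, 5.77 and 5.79 CPM in CIM libraries (3.01 ± 0.11, adjusted p = 7.1e-21), 8.03-fold higher after SIM. ARR16 had 20.08, 20.0 and 15.7 CPM in SIM libraries and 0, 2.403 and 2.65 CPM in CIM libraries (3.36 ± 0.32, adjusted p = 1.5e-09). ARR7 had 62.9, 65.5 and 62.6 CPM in SIM libraries and 19.5, 22.1 and 22.0 CPM in CIM libraries (1.58 ± 0.08, adjusted p = 3.6e-17). In each of these regulators, which act as feedback inhibitors of cytokinin signalling, SIM lay wholly above CIM, as in 29.5% of all genes tested. ARR5 (0.99 ± 0.05), ARR8 (0.86 ± 0.06), ARR3 (0.81 ± 0.12), ARR6 (0.54 ± 0.07), ARR9 (0.40 ± 0.04) and ARR4 (0.26 ± 0.05) followed in order of size. ARR17 had 3 counts after SIM and 0 after CIM and was not tested.

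**Figure D3:**
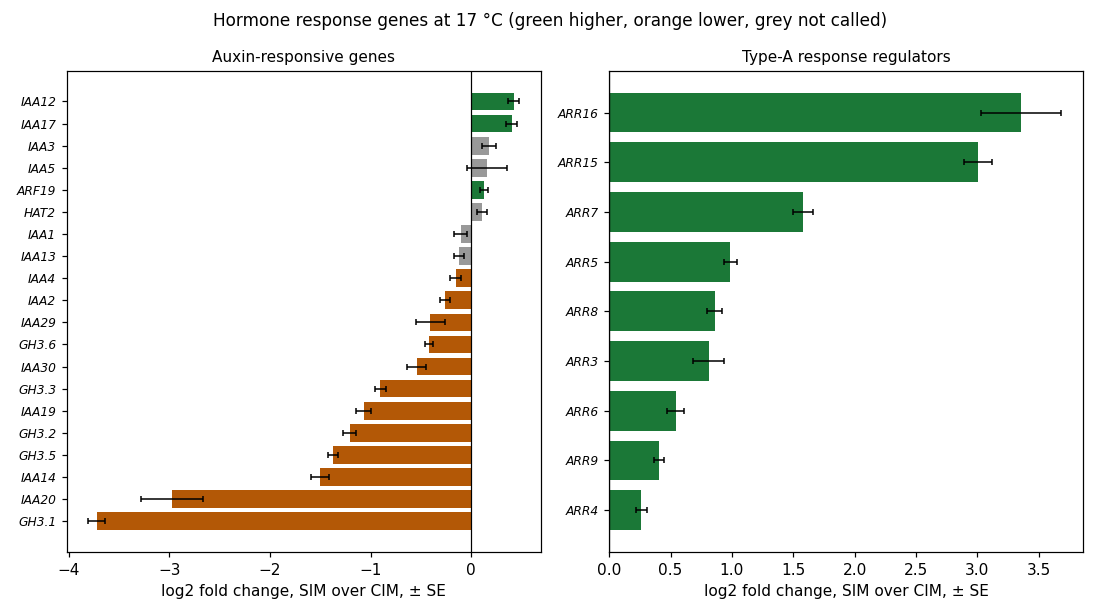
Log2 fold change of SIM over CIM at 17 °C for auxin-responsive genes (left) and type-A response regulators (right), with the standard error approximated from the F statistic. Green bars were called higher, orange lower and grey not called. IAA6 and IAA31 are left out because one group held at most 3 counts; the auxin genes reach down to -3.72 (GH3.1) and the response regulators up to 3.36 (ARR16).

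Genes that make or remove cytokinin moved less uniformly: of 22 tested, 8 rose and 5 fell, against 24.7% and 23.4% of all genes tested. IPT1, an isopentenyltransferase that starts cytokinin synthesis, rose to 16.8, 18.9 and 17.9 CPM in SIM explants against 2.91, 2.403 and 2.41 CPM in CIM explants (2.79 ± 0.22, adjusted p = 7.1e-13). The cytokinin oxidase genes CKX7 (1.51 ± 0.14) and CKX1 (0.79 ± 0.05) rose, and CKX5 fell (-0.47 ± 0.05). Of receptors, phosphotransfer proteins and type-B regulators, 5 of 18 rose and 7 fell. The receptor gene AHK4 rose to 271, 284 and 278 CPM in SIM explants against 172, 173 and 169.9 CPM in CIM explants (0.69 ± 0.04, adjusted p = 1.0e-16), while the cytokinin response factors CRF2 (-1.298 ± 0.07), CRF6 (-0.93 ± 0.11) and CRF3 (-0.49 ± 0.05) fell.

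Wound-related factors rose in 6 of 11 cases and fell in 1 (5 and 0 without CIM library 3). NAC071, a NAC factor of tissue reunion, had 43.0, 45.7 and 50.9 CPM in SIM explants and 24.7, 26.2 and 25.6 CPM in CIM explants (0.86 ± 0.09, adjusted p = 9.3e-10). ERF113 rose by 0.57 ± 0.04 and ERF108 by 2.38 ± 0.44. WIND1, an AP2/ERF factor that promotes dedifferentiation at wounds, was at 162, 175 and 159 CPM in SIM explants and 157, 153 and 152 CPM in CIM explants and was not called (0.10 ± 0.05, adjusted p = 0.12).

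Cell cycle genes moved little. Of 37 mitotic and G1 genes, 6 rose, 9 fell and 22 were not called, with a median log2 fold change of -0.06, and their summed level was 1547 to 1589 CPM in SIM libraries and 1631 to 1696 CPM in CIM libraries. CYCB1;1, a mitotic cyclin, had 37.3, 39.0 and 40.6 CPM in SIM explants and 45.1, 43.0 and 43.7 CPM in CIM explants (-0.17 ± 0.08, adjusted p = 0.12). CYCD1;1 (-1.33 ± 0.11), CYCA2;4 (-0.79 ± 0.08) and CYCD3;3 (-0.64 ± 0.09) fell, and CYCD6;1, a D-type cyclin activated by SHR and SCR in the root, rose (1.61 ± 0.19). Of the DNA replication genes, 8 of 24 fell and 0 rose, none by 2-fold, with POLA2 (-0.58 ± 0.07) and CDT1B (-0.61 ± 0.09) as examples. Of the inhibitors of cyclin-dependent kinases, 4 of 12 rose, with KRP7 (2.19 ± 0.18) and KRP2 (1.58 ± 0.12) among them, and 2 fell.

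Photosynthesis genes rose together, by an amount that depended on CIM library 3. Of 46 nuclear photosystem, light-harvesting and Rubisco genes, 43 were tested, 34 rose and 0 fell, with a median log2 fold change of 1.249. Their summed level was 1377, 1337 and 1333 CPM in SIM libraries, against 410.2, 431.5 and 819.4 CPM in CIM libraries. CIM library 3 thus lay between CIM libraries 1 and 2 and the SIM libraries, and without it 40 of the 43 genes were called higher with a median of 1.89. PSAF, a subunit of photosystem I, had 65.9, 62.2 and 62.4 CPM in SIM explants and 28.8, 27.6 and 34.5 CPM in CIM explants (1.06 ± 0.07; 1.16 without CIM library 3). LHCA1, a light-harvesting protein of photosystem I, had 38.8, 40.3 and 39.9 CPM in SIM explants and 12.5, 12.2 and 18.1 CPM in CIM explants (1.46 ± 0.11; 1.66 without CIM library 3). PSBY of photosystem II rose by 1.38 ± 0.10 and LHCA4 by 1.29 ± 0.10. Close copies such as the LHCB1 genes can share reads, and their split is uncertain.

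Chlorophyll synthesis genes rose with them, 13 of 19 higher and 3 lower. PORB, which makes chlorophyllide in light, had 40.4, 39.5 and 40.1 CPM in SIM explants and 8.14, 6.97 and 13.5 CPM in CIM explants (2.05 ± 0.13, adjusted p = 3.3e-15). CRD1 rose by 1.84 ± 0.12 and CHLI1 by 0.90 ± 0.07. CGA1, a cytokinin-induced GATA factor of greening, had 21.5, 19.2 and 17.38 CPM in SIM explants and 0, 0 and 1.93 CPM in CIM explants, with counts in CIM library 3 only (4.77 ± 0.46, adjusted p = 3.0e-08; at least 49.1-fold higher without that library). GLK2, a GARP factor of chloroplast development, was lower at 2.599, 1.62 and 2.203 CPM in SIM explants and 4.65, 4.08 and 4.34 CPM in CIM explants (-0.99 ± 0.30, adjusted p = 0.0078).

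Root hair genes were low on CIM and high on SIM. Of 18 root hair regulators and effectors, 17 were tested and 16 rose, each by at least 2-fold, with RSL2 (0.15) not called. The median log2 fold change was 5.81 with genes at 0 in CIM taken at their lower bound. The summed level was 427.6, 391.3 and 309.1 CPM in SIM libraries and 22.4, 21.9 and 18.1 CPM in CIM libraries. EXPA7, a root hair expansin, had 23.4, 20.3 and 17.62 CPM in SIM explants and 0, 0 and 0 CPM in CIM explants, at least 80.2-fold higher (adjusted p = 1.3e-14). RHS18, a root hair peroxidase, had 22.9, 20.0 and 15.4 CPM in SIM explants and 0, 0 and 0 CPM in CIM explants, at least 76.3-fold higher (adjusted p = 1.7e-14). RHS19 rose by 5.81 ± 0.30, and EXPA18 was higher by a ratio of 88.0 (exact 95% interval 24.0 to 732). Upstream of these effectors, RHD6, the bHLH factor that starts root hair fate, had 15.6, 11.9 and 10.3 CPM in SIM explants and 3.49, 2.64 and 2.17 CPM in CIM explants (2.201 ± 0.23); RHD6 and RSL2 were named after their values were seen. SIM library 3 had the lowest level of all 3 SIM libraries in each of the 5 genes given as higher here. All SIM values of these genes lay above all CIM values, as in 29.5% of all genes tested.

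The 12 largest increases over all genes were taken from called genes that averaged 5 CPM or more over the 6 libraries and whose groups did not overlap, and all encode cell wall proteins. They were the extensin genes EXT6, EXT10, EXT11, EXT12 and EXT13, genes annotated in RefSeq as extensin-like, AT4G08410, AT5G06630, AT4G08400, AT3G54580 and AT3G28550, the leucine-rich extensin LRX1 and the proline-rich protein PRP1. EXT6 had 143, 150.4 and 111 CPM in SIM explants and 0, 0 and 0 CPM in CIM explants, at least 526-fold higher (adjusted p = 2.8e-06). LRX1, which acts in root hair walls, had 73.5, 64.1 and 50.9 CPM in SIM explants and 0, 0 and 0 CPM in CIM explants, at least 246-fold higher (adjusted p = 4.5e-07). PRP1 was at least 208-fold higher. AT3G54580 and AT3G28550 had 2 counts each over the CIM libraries, and the others 0. Extensin genes carry long repeats and close copies, so the division of reads among them is uncertain.

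Phloem genes rose almost throughout. Of 19 tested, 18 rose, 13 of them by at least 2-fold, and 1 fell, with a median log2 fold change of 1.52. Their summed level was 2113 to 2132 CPM in SIM libraries and 1096 to 1119 CPM in CIM libraries. SEOA, a filament protein of sieve elements, had 200.4, 183 and 197 CPM in SIM explants and 36.0, 40.6 and 51.4 CPM in CIM explants (2.17 ± 0.07, adjusted p = 6.0e-17). SUC2, the sucrose loader of companion cells, had 161, 166 and 162 CPM in SIM explants and 50, 58.6 and 63.9 CPM in CIM explants (1.49 ± 0.05, adjusted p = 4.0e-21). The strigolactone-pathway relative SMXL4 (1.42 ± 0.07), needed for phloem formation, and the vascular DOF factor HCA2 (1.48 ± 0.07) rose with them. Only SMXL3 was lower (-0.42 ± 0.07), named after its value was seen.

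Xylem and secondary wall genes rose in 22 of 25 cases, but by little, with a median log2 fold change of 0.36 and 3 genes at least 2-fold higher. VND5, a NAC factor of vessel fate, had 42.1, 38.4 and 41.1 CPM in SIM explants and 18.0, 17.1 and 14.5 CPM in CIM explants (1.304 ± 0.10, adjusted p = 1.1e-12), and VND1 rose by 1.02 ± 0.09. The 2 genes that fell act in programmed cell death: MC9, a metacaspase, had 96.9, 107 and 92.3 CPM in SIM explants and 173, 156 and 170.1 CPM in CIM explants (-0.75 ± 0.05, adjusted p = 1.8e-14), and the nuclease BFN1 fell by 0.76 ± 0.08.

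Genes of the Casparian strip, the lignin seal between endodermal cells, rose in 9 of 11 cases, with a median log2 fold change of 3.00 and a summed level of 159 to 168 CPM in SIM libraries and 52.9 to 66.3 CPM in CIM libraries. MYB36, the factor that switches on the strip genes, had 35.2, 34.1 and 37.4 CPM in SIM explants and 4.07, 4.08 and 5.07 CPM in CIM explants (3.00 ± 0.14, adjusted p = 7.9e-19). CASP1, the scaffold of the strip, had 13.2, 17.9 and 13.5 CPM in SIM explants and 0, 0 and 0.965 CPM in CIM explants (5.31 ± 0.46, adjusted p = 4.5e-10), with counts in CIM library 3 only, and was at least 37.3-fold higher without that library. The peroxidase PER64 had 94 counts after SIM and 1 after CIM, a ratio of 91.9 (exact 95% interval 16.1 to 3668), and the blue copper protein UCC1 79 and 1, a ratio of 77.2 (exact 95% interval 13.5 to 3089). Without CIM library 3, which held both CIM counts, PER64 was at least 19.8-fold higher and UCC1 at least 16.7-fold higher. Suberin genes, active in an older endodermis and in cork, split instead, 6 higher and 7 lower of 16. The regulator MYB92 rose (2.73 ± 0.23), while FAR1 (-2.05 ± 0.07) and KCS2 (-1.88 ± 0.08), which make suberin lipids, fell. Other members of the list also went both ways. GPAT5 had 225 counts after SIM and 122 after CIM, and FHT 855 and 577, whereas FAR4 had 250 and 894 and FAR5 251 and 470. ABCG2 fell as well (-0.91 ± 0.05), but overlaps another gene over most of its length.

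Epidermal genes fell almost throughout. Of 21 epidermal identity and cuticle genes tested, 20 fell and 0 rose, 14 by at least 2-fold, with a median log2 fold change of -1.56 and a summed level of 548 to 587 CPM in SIM libraries and 1464 to 1636 CPM in CIM libraries. PDF2, a homeodomain factor of epidermal fate, had 16.8, 13.3 and 14.9 CPM in SIM explants and 86.6, 81.9 and 84.5 CPM in CIM explants (-2.48 ± 0.09, adjusted p = 1.0e-21). BDG, an enzyme of the cuticle, had 5.43, 5.14 and 6.12 CPM in SIM explants and 74.4, 75.7 and 65.6 CPM in CIM explants (-3.68 ± 0.13, adjusted p = 4.3e-19). CER3, which makes wax alkanes, had 60.5, 55.7 and 58.7 CPM in SIM explants and 262, 253 and 231 CPM in CIM explants (-2.09 ± 0.07, adjusted p = 1.0e-16). Every SIM library lay below every CIM library for these genes, as in 27.7% of all genes tested. The wax exporter CER5 fell too (-1.82 ± 0.08). Of 12 stomatal lineage genes 4 were tested; SCRM2, a bHLH partner of the lineage factors, fell (-4.11 ± 0.21), SCRM rose (0.47 ± 0.09), and SPCH, MUTE and FAMA, which define the lineage, did not pass the filter.

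**Figure D4:**
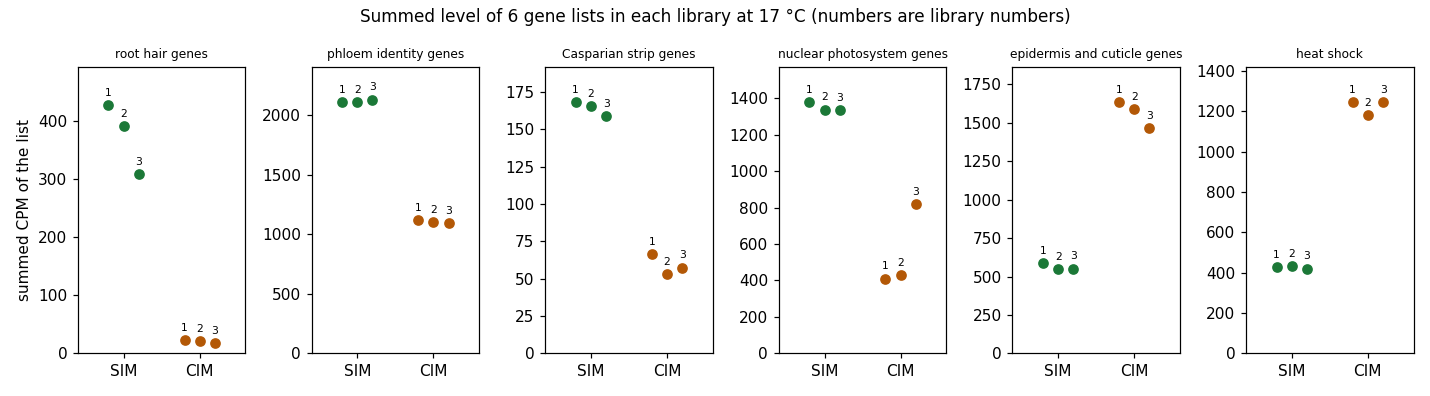
Summed CPM of 6 gene lists in each SIM (green, left) and CIM (orange, right) library at 17 °C; the numbers are library numbers and the axes start at 0. Root hair, phloem, Casparian strip and photosystem genes were higher in every SIM library and epidermal and heat shock genes lower; CIM library 3 stood at 819.4 CPM of photosystem genes against 410.2 and 431.5 CPM in the other CIM libraries.

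Vascular markers were present in every library, which does not by itself show the organ of origin. The xylem list summed to 1629 to 1689 CPM in SIM libraries and 1333 to 1443 CPM in CIM libraries. Its fibre regulators NST1, NST2 and NST3 were at 0 counts in both groups. Of the stomatal markers, MUTE had 0 counts in both groups and SPCH had 20 counts after SIM and 0 after CIM. Seed maturation genes passed the filter in 2 of 18 cases, with 0 called. These cell type lists moved with the other lists, and their part in those results was not tested.

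Heat shock genes were lower after SIM. Of 18 tested, 14 fell, each by at least 2-fold, and 0 rose, with a median log2 fold change of -1.72 and a summed level of 421 to 432 CPM in SIM libraries and 1181 to 1247 CPM in CIM libraries. HSP101, a disaggregating chaperone, had 54.1, 58.5 and 53.6 CPM in SIM explants and 179.9, 184 and 189 CPM in CIM explants (-1.74 ± 0.06, adjusted p = 1.8e-22). HSP90.1 had 61.7, 53.0 and 53.6 CPM in SIM explants and 245, 224 and 235 CPM in CIM explants (-2.06 ± 0.07, adjusted p = 3.0e-18). HSP17.6A, a small heat shock protein, had 7.56, 5.68 and 7.59 CPM in SIM explants and 41.3, 40.6 and 42.5 CPM in CIM explants (-2.56 ± 0.12, adjusted p = 1.4e-18), and HSP17.4 fell by 2.23 ± 0.10. Both groups were held at 17 °C, and every SIM library lay below every CIM library in summed level.

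Cold-regulated genes rose in 8 of 12 cases and fell in 0, with a median log2 fold change of 0.59. COR6.6 had 65.2, 71.4 and 67.0 CPM in SIM explants and 28.8, 31.7 and 30.2 CPM in CIM explants (1.16 ± 0.07, adjusted p = 1.4e-15). Its neighbour and close copy KIN1 had 21.0, 21.4 and 21.8 CPM in SIM explants and 2.91, 3.84 and 5.79 CPM in CIM explants (2.32 ± 0.21, adjusted p = 4.9e-11). The dehydrin COR47 (0.81 ± 0.06) and the membrane protein COR413PM1 (0.70 ± 0.06) rose by less. Both groups were at the same temperature, and SIM explants had been there 4 days longer.

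Flavonoid genes rose in 8 of the 9 that passed the filter, of 18. CHS, chalcone synthase at the head of the pathway, had 235, 251 and 232 CPM in SIM explants and 71.5, 83.6 and 91.7 CPM in CIM explants (1.53 ± 0.06, adjusted p = 1.2e-14). FLS1, flavonol synthase, had 104.9, 104.7 and 107 CPM in SIM explants and 29.9, 29.8 and 30.6 CPM in CIM explants (1.81 ± 0.07, adjusted p = 5.4e-21). The 2 MYB activators of flavonol genes that were tested moved in opposite directions. MYB12 had 62.9, 56.3 and 61.7 CPM in SIM explants and 22.4, 21.6 and 20.8 CPM in CIM explants (1.49 ± 0.09, adjusted p = 1.6e-15), while MYB11 had 0.236, 0 and 0 CPM in SIM explants and 23.0, 20.7 and 13.8 CPM in CIM explants, lower by a ratio of 227 (exact 95% interval 40.3 to 9008). The glycosyltransferase genes UGT78D1 (2.06 ± 0.11) and UGT78D2 (1.06 ± 0.05) rose, and the anthocyanin genes DFR, LDOX and UF3GT did not pass the filter.

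Among other hormones, 5 of 22 abscisic acid genes were higher and 5 lower (3 and 6 without CIM library 3). Those counts with all libraries are near the 24.7% and 23.4% of all genes tested. CYP707A4, which breaks abscisic acid down, had 60.5, 54.4 and 52.4 CPM in SIM explants and 0.872, 0.480 and 6.27 CPM in CIM explants (4.39 ± 0.32; 6.33 without CIM library 3, which was the highest of the CIM libraries). NCED5, an enzyme of abscisic acid synthesis, rose (2.31 ± 0.17), and the response gene RD22 fell (-2.23 ± 0.07). Of the gibberellin genes 7 of 19 rose and 9 fell, the fall being largest for GA2OX4, which inactivates gibberellin, at 2.36, 1.35 and 1.47 CPM in SIM explants and 25.29, 23.3 and 17.1 CPM in CIM explants (-3.61 ± 0.25). GA3OX2, which makes the active form, fell by 1.86 ± 0.19. Ethylene genes were lower in 9 of 21 cases and higher in 3. HLS1, the acetyltransferase-like regulator of the apical hook, had 0.945, 0.541 and 2.203 CPM in SIM explants and 54.9, 53.6 and 43.0 CPM in CIM explants (-5.30 ± 0.20, adjusted p = 1.3e-19), and the response factor ERF1 fell by 2.64 ± 0.22.

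The brassinosteroid list had 7 of 17 genes lower and 4 higher, against 23.4% and 24.7% of all genes tested. The receptor gene BRI1 had 139.9, 144 and 140.5 CPM in SIM explants and 293, 284 and 273 CPM in CIM explants (-1.001 ± 0.04, adjusted p = 2.7e-19). CYP85A2, the last enzyme of brassinolide synthesis, had 7.32, 7.85 and 7.59 CPM in SIM explants and 65.1, 71.1 and 63.5 CPM in CIM explants (-3.13 ± 0.14, adjusted p = 1.1e-15), and BKI1, an inhibitor of the receptor, fell by 1.85 ± 0.14. Jasmonate genes were 5 higher and 5 lower of 20, near the 24.7% and 23.4% of all genes tested. The storage protein VSP2 rose (2.86 ± 0.28, or 3.63 without CIM library 3). JAR1, which makes the active conjugate (-0.90 ± 0.05), and the repressor JAZ6 (-2.15 ± 0.16) fell. Salicylate genes rose in 5 of 11 cases and fell in 0, with PAD4 (0.75 ± 0.09) and EDS1 (0.32 ± 0.06), partners in defence signalling, among them, and SARD1 at 1.28 ± 0.35.

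Genes of nitrogen supply were mostly lower, 13 of 22 against 3 higher (11 and 6 without CIM library 3). NRT1.1, the nitrate transporter and sensor, had 36.9, 37.1 and 34.5 CPM in SIM explants and 140.4, 151 and 166 CPM in CIM explants (-2.09 ± 0.08, adjusted p = 3.0e-16). The glutamine synthetase genes GLN1;1 (-0.60 ± 0.05) and GLN1;4 (-0.82 ± 0.08) fell. Of 23 sugar genes, 9 rose and 9 fell. SUC1, a sucrose importer, had 205, 225 and 215 CPM in SIM explants and 84.3, 84.6 and 84.9 CPM in CIM explants (1.34 ± 0.05, adjusted p = 4.4e-21), and BAM3, a chloroplast amylase, rose by 2.13 ± 0.16. SWEET15, a sugar exporter, had 24.8, 26.8 and 20.07 CPM in SIM explants and 127, 118 and 144 CPM in CIM explants (-2.45 ± 0.14, adjusted p = 5.4e-09). Iron genes were 3 higher and 3 lower of 15, near the 24.7% and 23.4% of all genes tested. OPT3 (1.18 ± 0.09) and NAS4 (2.90 ± 0.37), both of metal transport, rose, and F6'H1, which makes coumarins (-2.03 ± 0.09), and the reductase FRO3 (-1.6 ± 0.14) fell.

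Of 29 detoxification genes, 12 fell and 7 rose. The glutathione transferase genes GSTU9 (-2.26 ± 0.12), GSTU22 (-1.85 ± 0.12) and GSTF7 (-1.01 ± 0.08) and the P450 gene CYP81D8 (-0.74 ± 0.06) were lower after SIM. Clock genes changed by less than 1 log2 unit throughout, 6 higher and 4 lower of 15, with CCA1, a morning factor, at 111, 110.4 and 100.3 CPM in SIM explants and 62.8, 63.0 and 62.7 CPM in CIM explants (0.77 ± 0.06, adjusted p = 3.0e-13) and GI at -0.37 ± 0.05. Light and temperature signalling genes were 9 higher and 3 lower of 24, with SPA4 (0.67 ± 0.06) and COP1 (0.34 ± 0.06), partners in a ubiquitin ligase, higher and PAR2 lower (-2.49 ± 0.23). Chromatin genes were lower in 10 of 24 cases and higher in 2 (9 and 1 without CIM library 3), none of them by 2-fold with all libraries. BMI1A, a Polycomb ring protein (-0.59 ± 0.08), MET1, the maintenance DNA methyltransferase (-0.25 ± 0.04), and CMT3 (-0.34 ± 0.05) fell, while CMT2 rose (0.47 ± 0.05).

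The 12 largest decreases, by the same rule, included WOX5, LBD19 and MYB11. AT2G43860, annotated in RefSeq as a pectin lyase-like protein, had 0, 0.271 and 0 CPM in SIM explants and 41.3, 41.6 and 47.5 CPM in CIM explants, lower by a ratio of 524 (exact 95% interval 93.6 to 20720). CYP77B1, a cytochrome P450 gene, had 1.42, 1.62 and 3.43 CPM in SIM explants and 190.4, 186 and 163 CPM in CIM explants (-6.35 ± 0.16, adjusted p = 2.9e-16). RGF8, which encodes a root growth factor peptide, had 0.472, 0.271 and 0.245 CPM in SIM explants and 25.6, 28.4 and 22.9 CPM in CIM explants (-6.14 ± 0.31, adjusted p = 1.3e-17). TEL2, an RNA-binding protein of the Mei2-like family, had 2 counts after SIM and 142 after CIM, a ratio of 72.6 (exact 95% interval 19.7 to 606). FRO5 had 1 and 141 counts, CSLB03 fell by 5.82 ± 0.41, and the others were AT1G23620, AT5G48130 and AT2G03850.

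The change of medium at 17 °C was then set against the same change at 27 °C, with the difference between both effects tested in the same fit. Of 20704 genes, 3827 (18.5%) had a called difference, 2116 with the effect at 17 °C above that at 27 °C (10.2%) and 1711 below (8.26%), and 606 (2.93%) differed by more than 1 log2 unit (glmTreat). Of the 5107 genes higher after SIM at 17 °C, 3545 (69.4%) were also called higher at 27 °C, and of the 4848 lower genes, 3280 (67.7%) were also lower. Of all genes tested, 24.9% were called higher at 27 °C and 24.8% lower. Calls in opposite directions with a called difference were made for 346 genes (1.67%). The 17 °C and 27 °C groups share no library.

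Phloem genes rose more at 17 °C. The difference was called for 18 of 19, with the effect at 17 °C above that at 27 °C in 17 and below in 1, and the median log2 fold change was 1.52 at 17 °C and 0.78 at 27 °C. For SEOA the effect was 2.17 at 17 °C and 0.60 at 27 °C, a difference of 1.56 ± 0.11 (adjusted p = 2.5e-10). For HCA2 the effect was 1.48 at 17 °C and 0.74 at 27 °C, a difference of 0.74 ± 0.10 (adjusted p = 8.5e-07), while that of SUC2 was not called (-0.16 ± 0.08, adjusted p = 0.24). These differences compare ratios, to which the CIM level contributes. SEOA had 2327 SIM and 506 CIM counts at 17 °C, and 1487 SIM and 972 CIM counts at 27 °C. HCA2 had 900 SIM and 315 CIM counts at 17 °C, and 847 SIM and 503 CIM counts at 27 °C. Casparian strip genes had a median of 3.00 at 17 °C and 0.63 at 27 °C, with 5 of 11 differences called above and 1 below. Over all genes tested, 10.2% of differences were called above and 8.26% below. Some of these genes, PER64 and UCC1 among them, had 3 counts or fewer in at least 1 CIM group, so no size is given for their differences.

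Photosystem genes rose less at 17 °C, though the number called depended on CIM library 3. The effect at 17 °C was below that at 27 °C in 28 of 43 genes and above in 0 (8.26% and 10.2% of all genes tested). The median was 1.249 at 17 °C and 2.41 at 27 °C, where all 43 were called higher (24.9% of all genes tested). LHCA1 rose by 1.46 at 17 °C and 2.21 at 27 °C (-0.75 ± 0.17, adjusted p = 0.0015). This result rests in part on CIM library 3: without it, 13 of the 43 differences were called, all below, the median at 17 °C was 1.89, and the effect for LHCA1 was 1.66. In heat shock genes the fall was larger at 17 °C: in 10 of 18 the effect at 17 °C lay below that at 27 °C and in 0 above, with medians of -1.72 at 17 °C and -0.51 at 27 °C. HSP90.1 changed by -2.06 at 17 °C and -0.22 at 27 °C (-1.83 ± 0.08, adjusted p = 3.1e-14).

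**Figure D5:**
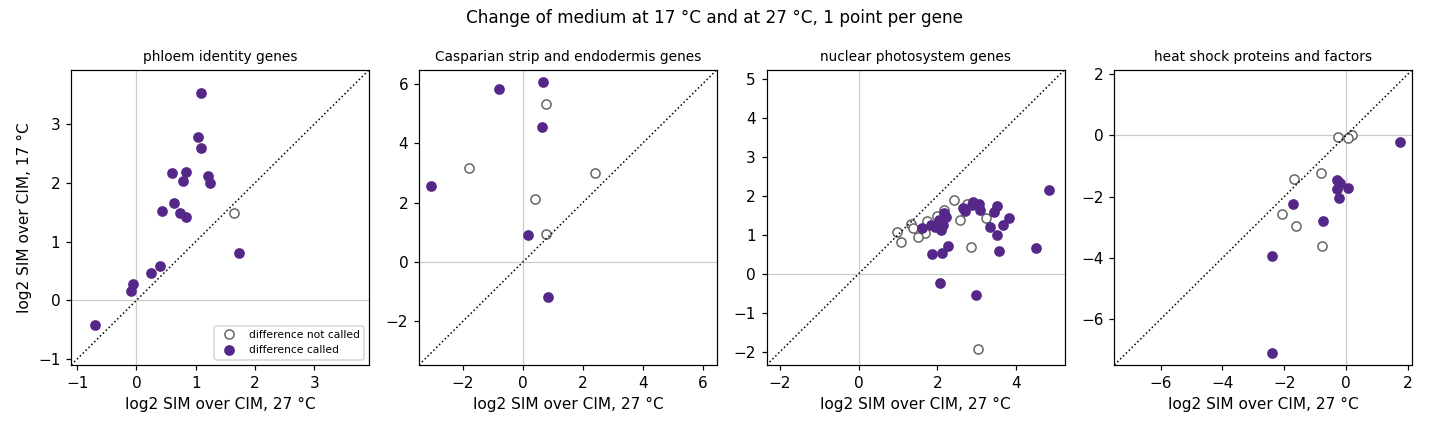
Fitted log2 fold change of SIM over CIM at 17 °C (y axis) against that at 27 °C (x axis) for the tested genes of 4 lists; filled points had a called difference, and the dotted line marks equal effects. Phloem and Casparian strip genes lie mostly above the line, photosystem and heat shock genes mostly below it.

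Many root-type callus genes fell less far at 17 °C. The effect at 17 °C lay above that at 27 °C in 11 of 22 and below in 2. For each list here, the share over all genes tested was 10.2% above and 8.26% below. PLT1 changed by -3.70 at 17 °C and -8.29 at 27 °C, a difference of 4.59 ± 0.43 (adjusted p = 1.1e-09). BBM (2.45 ± 0.41) and LBD33 (3.86 ± 0.38) also had smaller falls at 17 °C. PLT1, BBM and LBD33 had only 4, 12 and 6 counts in SIM explants at 27 °C, so the sizes of their differences are uncertain. LBD29 and WOX5 had smaller falls at 17 °C too, but no size is given because SIM explants at 27 °C had 3 and 2 counts. In contrast, LBD16 fell further at 17 °C (-0.90 ± 0.16, adjusted p = 8.6e-05). Among the 18 shoot regulators tested, 5 effects lay below those at 27 °C and 0 above. STM had 1 count in SIM explants and 3 in CIM explants at 17 °C, and 90 in SIM explants and 0 in CIM explants at 27 °C. CUC1 changed by 1.75 at 17 °C and 3.21 at 27 °C (-1.45 ± 0.45, adjusted p = 0.019). For STM, and for WUS and CYP78A5, at 0 in both CIM groups, the fit gives no usable size of the difference. Type-A response regulators had 4 of 9 differences above and 0 below, with ARR15 at 3.01 at 17 °C and 1.7 at 27 °C (1.304 ± 0.17, adjusted p = 4.8e-07) and ARR3 at 0.81 at 17 °C and -1.50 at 27 °C (2.31 ± 0.21, adjusted p = 3.1e-10), so that ARR3 rose at 17 °C and fell at 27 °C.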

How the data were processed

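The authors deposited whole-number read counts per gene for 15 Arabidopsis libraries, made with a stranded mRNA kit per the labels' protocols. The submitters' processing notes name FastQC 0.11.7, Bowtie2 2.3.4.3, SAMtools 1.9, bedtools 2.26.0 and the TAIR10 build. Step order, use of strand and removal of duplicate reads are not given in the sources used here. For the compared samples, the highest count in any library was 3476, and the 279 organelle genes were at 0 throughout. Whether the way of counting limits the level of abundant genes was not tested.

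All 15 libraries, in 5 groups, were fitted together with edgeR 4.0.16 in R 4.3.3 (filterByExpr, TMM scaling with factors of 0.907 to 1.04, robust quasi-likelihood test, no replicate block). The contrasts were SIM against CIM at 17 °C, the same at 27 °C, and their difference, with Benjamini-Hochberg adjustment over 20704 genes and a threshold of 0.05. CPM were counts over the library total scaled by its TMM factor, and total counts of 3427707 to 4159645 limit precision for genes of a few counts. For a gene with 0 counts in 1 group, a lower bound on the fold was taken at 3 counts over that group; with 1 to 3 counts, the ratio has an exact 95% interval, which covers counting error only.

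The gene lists and the samples compared were chosen with earlier results of these data known. Of 850 list symbols, 829 were matched to the table. Genes were named by rule: the members of the shoot meristem, root-type callus, auxin-responsive and type-A lists, the 4 called genes of smallest p in each other list, WIND1, YUC4, CYCB1;1, GLK2 and CHS, the 12 largest changes in each direction among called genes of at least 5 mean CPM over the 6 libraries without overlap, and the 5 largest differences from 27 °C in each direction. RHD6, RSL2, SMXL3, GPAT5, FHT, FAR4, FAR5 and list members below the filter were named after their values were seen. Gene starts and upstream sequence came from RefSeq TAIR10.1. Alternatives were DESeq2 1.42.0 and its size factors, glmTreat against 1 log2 unit, other filters, a replicate block, single libraries left out, and counts corrected as if each position had been counted once. Same-numbered libraries did not deviate together (correlations of -0.130, -0.029 and -0.107), so numbers were not taken to pair samples.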

Additional observations from a re-analysis of the deposited data

Results flagged for a closer look

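For 29 named genes, the log2 fold change of SIM over CIM differed between 17 °C and 27 °C by more than 1 log2 unit in edgeR's glmTreat test of the difference itself; each value is the effect at 17 °C minus that at 27 °C, with both effects in brackets. For 9 of them, given last, at least 1 of the 4 groups had 3 counts or fewer in all. Other genes were near that limit. PLT1, LBD33 and GA2OX4 had 4, 6 and 6 counts in SIM explants at 27 °C, and SSL2 had 6 in CIM explants at 27 °C. The sizes of their differences are therefore uncertain.

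Among regulators, the effect at 17 °C was above that at 27 °C for PLT1 (difference 4.59, from -3.70 at 17 °C and -8.29 at 27 °C) and LBD33 (difference 3.86, from -1.21 at 17 °C and -5.07 at 27 °C). It was also above for BBM (difference 2.45, from -4.29 at 17 °C and -6.73 at 27 °C) and ARR3 (difference 2.31, from 0.81 at 17 °C and -1.50 at 27 °C). It was below for CYCD1;1 (difference -1.43, from -1.33 at 17 °C and 0.10 at 27 °C).

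In hormone, metabolite and transport genes, the effect at 17 °C was above for CYP94B3 (difference 4.47, from -0.78 at 17 °C and -5.25 at 27 °C), GA2OX4 (difference 3.00, from -3.61 at 17 °C and -6.62 at 27 °C) and GSTF7 (difference 2.51, from -1.01 at 17 °C and -3.52 at 27 °C). It was above also for F6'H1 (difference 1.83, from -2.03 at 17 °C and -3.86 at 27 °C), OPT3 (difference 1.81, from 1.18 at 17 °C and -0.62 at 27 °C) and SEOA (difference 1.56, from 2.17 at 17 °C and 0.60 at 27 °C). It was below for VSP2 (difference -3.94, from 2.86 at 17 °C and 6.79 at 27 °C), FRO3 (difference -1.64, from -1.60 at 17 °C and 0.04 at 27 °C), CYP85A2 (difference -1.55, from -3.13 at 17 °C and -1.58 at 27 °C) and NRT1.1 (difference -1.40, from -2.09 at 17 °C and -0.68 at 27 °C).

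In wall, cuticle and chaperone genes, the effect at 17 °C was below for BDG (difference -1.63, from -3.68 at 17 °C and -2.05 at 27 °C), HSP90.1 (difference -1.83, from -2.06 at 17 °C and -0.22 at 27 °C) and HSP101 (difference -1.46, from -1.74 at 17 °C and -0.28 at 27 °C).

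Of the genes named because their fitted differences were among the 5 with the highest or lowest values, SSL2 (difference -7.62, from -3.23 at 17 °C and 4.39 at 27 °C) and AT5G18840 (difference -6.14, from -1.39 at 17 °C and 4.75 at 27 °C) had more than 3 counts in every group. PRP2, also named by that rule, did not pass the glmTreat test and had 2 counts in CIM explants at 17 °C.

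The fitted differences of the other 9 genes depend on the prior count and have no usable size, so they give no order. Above the effect at 27 °C stood LBD29 (fitted value 3.18, with 85 SIM and 581 CIM counts at 17 °C and 3 SIM and 213 CIM counts at 27 °C). AT1G30730, annotated as a berberine-family protein (fitted value 7.36), had 1090 SIM and 2046 CIM counts at 17 °C and 3 SIM and 1065 CIM counts at 27 °C. AT3G48510 (fitted value 7.21) had 265 SIM and 705 CIM counts at 17 °C and 1 SIM and 564 CIM counts at 27 °C. AT1G36630 (fitted value 8.69) and AT4G06566 (fitted value 9.74), uncharacterized in RefSeq, had 253 and 242 SIM counts with 15 and 4 CIM counts at 17 °C, and no SIM counts with 10 and 6 CIM counts at 27 °C.

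Below it stood STM (fitted value -9.11, with 1 SIM and 3 CIM counts at 17 °C and 90 SIM and 0 CIM counts at 27 °C). AT3G25190 (fitted value -8.20) had 33 SIM and 38 CIM counts at 17 °C and 354 SIM and 1 CIM count at 27 °C. PTAC16 (fitted value -6.58) had 21 SIM and 20 CIM counts at 17 °C and 239 SIM and 2 CIM counts at 27 °C. XTH32 (fitted value -6.09) had 58 SIM and 20 CIM counts at 17 °C and 270 SIM and 1 CIM count at 27 °C. Without CIM library 3, the log2 fold change at 17 °C was 2.58 for PTAC16 (0.04 with it), 2.55 for XTH32 (1.49 with it) and 3.63 for VSP2. The cause of these differences was not tested.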

How the results depend on the processing

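Of the 9955 genes called at 17 °C (5107 higher, 4848 lower), a test against a change of 1 log2 unit called 1976 (947 higher, 1029 lower), and of the 3827 differences between 17 °C and 27 °C it called 606 (359 above, 247 below), as its stricter null hypothesis implies. Leaving out single libraries gave 9023 to 9344 calls (4443 to 4722 higher, 4336 to 4708 lower) and 3285 to 3719 called differences (1743 to 2022 above, 1485 to 1709 below). The other alternatives stayed within 1.5 times: DESeq2 called 8427 genes and 2902 differences, and counting CIM libraries 1 and 2 as 1 sample gave 9930 calls. A fit of only the compared libraries called 9498 genes at 17 °C. With the replicate block, 9903 genes and 3793 differences were called, and 98.8% of the reported calls were shared. Of the named genes, SHR lost its call with the block. DESeq2's size factors placed 48.2% of calls higher, against 51.3% with TMM. Among the 220 called named genes, 213 kept their call in each of the 16 settings other than the test against 1 log2 unit that fitted them; filters left out 5 of the 220 in 1 or 2 settings. ARF19, IAA29, IAA4, LAS, SHR, WOX12 and YUC4 lost it in some, the cause was not tested, and 0 reversed. Not called with all libraries, HAT2, IAA3, IAA13 and PTAC16 were called in at least 1 setting. At these depths, genes with under 4 counts in a group, such as STM, give no usable fitted fold, and medium cannot be told apart from 4 further days of culture.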
